A study of Rattus norvegicus with 4 samples.

Results

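Expression of the CC chemokine genes was described in cultured rat alveolar macrophages (NR8383) exposed to carbon nanotubes. The genes were Ccl2, Ccl3, Ccl4, Ccl5, Ccl6, Ccl7, Ccl9, Ccl17, Ccl22 and Ccl24, which are 10 of the 16581 genes that could be named on the array. They were found by the RefSeq accession of each probe and are represented by 12 of 45598 probes, with 3 probes for Ccl22 and 1 for each other gene. All 4 samples formed 1 group of biological replicates, cells at 20 passages that had been incubated for 4 h with NRCWE055. These are pristine carbon nanotubes of the single-walled kind, and the dose was 11 cm2/cm2. NR8383 is an established line from rat lung lavage, grown partly attached and partly floating. Unexposed cells were not analysed here, so no value is a response to the nanotubes. For replicates 2, 3 and 4 the source name has a different nanotube code than the title, and the title was used.

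CC chemokines are small secreted proteins with adjacent cysteines near the amino terminus that draw leukocytes along concentration gradients through G protein-coupled receptors. Ccl2 and Ccl7 attract monocytes through Ccr2, Ccl3, Ccl4 and Ccl5 attract monocytes and T cells, and Ccl17 and Ccl22 act on T cells through Ccr4. In the lung, alveolar macrophages are a known source of several of these ligands during responses to inhaled particles.

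The RefSeq table of assembly GRCr8 places 7 of the genes on chromosome 10, 2 on chromosome 19 and 1 on chromosome 12. On chromosome 10, Ccl7 is the next coding gene after Ccl2, and Ccl9, Ccl6, Ccl3 and Ccl4 follow one another in that order after Ccl5. On chromosome 19 only Cx3cl1 lies between Ccl17 and Ccl22. Promoters were available for 6 of the 10 genes. The 250 bases before the gene start are shown for Ccl6 and Ccl22, which were detected on all arrays, and for Ccl7 and Ccl17, neighbours of detected genes that were themselves at the detection limit. The sequences are those of RefSeq, build GRCr8, written 5′ to 3′ on the strand of the gene, and capitals mark matches to the motifs given after them.
Ccl6, chr10:68883367-68883616, minus strand: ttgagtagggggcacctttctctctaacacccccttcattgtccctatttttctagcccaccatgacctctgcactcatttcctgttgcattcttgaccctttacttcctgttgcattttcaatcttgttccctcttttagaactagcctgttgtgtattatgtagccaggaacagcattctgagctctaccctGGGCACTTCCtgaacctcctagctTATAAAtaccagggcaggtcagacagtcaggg
Ccl22, chr19:10270360-10270609, minus strand: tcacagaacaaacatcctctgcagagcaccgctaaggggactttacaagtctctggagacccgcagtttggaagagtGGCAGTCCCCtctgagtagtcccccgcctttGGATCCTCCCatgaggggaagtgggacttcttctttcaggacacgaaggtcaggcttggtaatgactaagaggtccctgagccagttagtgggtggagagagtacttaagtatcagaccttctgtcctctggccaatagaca
Ccl7, chr10:67513845-67514094, plus strand: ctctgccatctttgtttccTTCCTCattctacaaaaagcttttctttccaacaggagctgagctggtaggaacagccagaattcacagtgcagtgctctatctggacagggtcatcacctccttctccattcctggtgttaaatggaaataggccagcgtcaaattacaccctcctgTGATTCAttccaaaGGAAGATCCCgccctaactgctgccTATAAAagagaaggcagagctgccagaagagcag
Ccl17, chr19:10209896-10210145, minus strand: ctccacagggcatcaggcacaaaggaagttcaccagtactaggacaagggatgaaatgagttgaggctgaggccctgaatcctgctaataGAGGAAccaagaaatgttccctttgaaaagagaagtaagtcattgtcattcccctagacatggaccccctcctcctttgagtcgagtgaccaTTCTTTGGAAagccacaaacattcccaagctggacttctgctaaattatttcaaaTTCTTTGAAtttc

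Motifs were searched on both strands of the 250 bases in 33469 promoters. The letters GGGNNNNNCC, the outer bases of the NF-kB consensus, were found in 5 of 6 chemokine promoters, against 42.3% of all promoters. They lay 56 to 47 bases before the start of Ccl6 and 59 to 50 bases before that of Ccl7, and Ccl22 had them at 2 places. TATAAA was found in 4 of 6, against 12.9% of all, and lay 32 to 27 bases before the start in Ccl6 and 34 to 29 bases before it in Ccl7. In Ccl24 it lay 65 to 60 bases before the start, and in Ccl9 165 to 160 bases before it on the opposite strand. The AP-1 letters TGANTCA were found only in Ccl7 of the 6 promoters searched, against 6.34% of all. The spaced STAT6 letters TTCNNNNGAA were found only in Ccl17 of the 6, against 6.25% of all, and TTCNNNGAA was found in Ccl17 and Ccl24, against 7.67% of all. GAGGAA, the core recognised by PU.1, was found in Ccl7, Ccl17 and Ccl24, against 23.3% of all, and 1 of its 2 matches in Ccl24 overlapped that of TTCNNNGAA. No match to the C/EBP letters TTGCNNAA was found in the 6 windows, against 9.22% of all. Of the genes detected on all arrays, Ccl6, Ccl9 and Ccl22 had GGGNNNNNCC, and Ccl6 and Ccl9 had TATAAA. Of the others, Ccl7 and Ccl24 had both and Ccl17 had neither. A match is a description of letters and not a bound site.

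Signals are given as the processed intensity of the array scanner, without a unit, averaged over the spots of a probe on each array. The arrays differed in brightness. Over the probes that passed detection everywhere, the 75th percentile was 1756 on replicate 1, 2631 on replicate 2, 2861 on replicate 3 and 1873 on replicate 4, so a gene at a constant level was brighter on replicates 2 and 3. Levels are therefore log2 of the signal relative to this percentile, with mean ± SD over the 4 arrays (n = 4). Signals and levels describe single probes and are not compared between genes. Detection of a probe required that over 0.5 of its usable spots carry the scanner software's flag for well above background, and detection of a gene required 1 such probe. Precision is limited by having 4 arrays. RNA was measured from whole cultures, so fewer cells making a transcript and less transcript per cell cannot be told apart.

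The labelled cell type was checked against its markers, where 52.4% of all named genes were detected on all arrays. Of 13 measured macrophage and alveolar macrophage markers, 10 were detected on all arrays, among them Cd68, Csf1r, Spi1 and Pparg, whereas Adgre1, Marco and Car4 were detected on none. Of 23 measured genes listed as markers of other cell types, 6 were detected on all arrays (Cd3d, Cd4, S100a8, Prg2, Cdh5 and Pecam1), 4 on some and 13 on none. Whether each listed gene is particular to its cell type, and not also made by macrophages, was not tested. None of the 4 lung epithelium markers was detected.

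Most of the 10 CC chemokine genes described here were detected in the exposed cells. Ccl2, Ccl3, Ccl4, Ccl5, Ccl6, Ccl9 and Ccl22 were well above background on all 4 arrays, 7 of 10 genes (70%) against 52.4% of all named genes. Ccl7 and Ccl17 were detected on 2 arrays each and Ccl24 on 1. The share of 70% holds for the 10 genes listed and not for the whole family. Of the 10 other CC ligand genes measured, 0 were detected on all arrays. No spot of any of the 12 probes was saturated, and 1 of 132 spots was left out as an outlier.

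**Figure D1:**
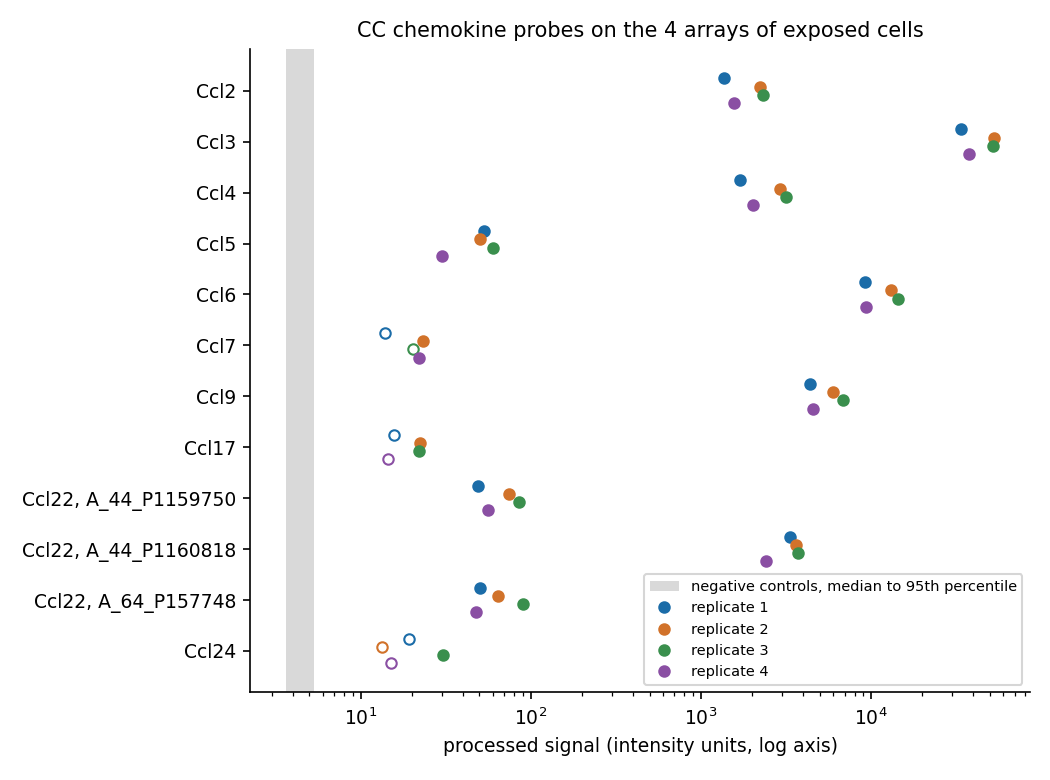
Processed signal (intensity units, log axis) of each of the 12 CC chemokine probes on the 4 arrays of exposed cells, filled where the probe was well above background and open where it was not. The grey band runs from the median to the 95th percentile of the negative control spots. The probes of Ccl7, Ccl17 and Ccl24 lie between 13.4 and 30.4, and the 3 Ccl22 probes split into one between 2431 and 3710 and 2 between 47.6 and 90.3.

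Among the inflammatory ligands, Ccl3 (macrophage inflammatory protein 1 alpha) had a signal of 33730 on replicate 1, 53070 on replicate 2, 52380 on replicate 3 and 37800 on replicate 4. After scaling it was at 4.28 ± 0.07, with a span between arrays of 1.1-fold. Raw spot brightness was 891 to 1280 times the local background of the spots. Ccl4 (macrophage inflammatory protein 1 beta), the next coding gene on the chromosome, had 1707, 2916, 3156 and 2013 on replicates 1 to 4 and was at 0.09 ± 0.09. Replicate 1 was the lowest array for Ccl4, at -0.04 against 0.10 to 0.15 on the other arrays, a span of 1.14-fold. The Ccl4 probe was printed in 1 spot, so spot noise and a difference between cultures cannot be told apart.

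Ccl5 (RANTES), the T cell and monocyte attractant, had the largest SD of the detected CC chemokine genes, not matched for level. Its signal was 53.5 on replicate 1, 50.6 on replicate 2, 60.4 on replicate 3 and 30.2 on replicate 4, with raw brightness only 2.06 to 2.92 times the local background. Scaled, it was at -5.04 on replicate 1, -5.70 on replicate 2, -5.57 on replicate 3 and -5.95 on replicate 4, which gives -5.56 ± 0.39 and a span of 1.89-fold. Replicate 1 was thus the highest array and replicate 4 the lowest, although their overall brightness was alike. The 200 detected probes nearest to it in level had a median SD of 0.209, and 7.5% of them had a larger SD than Ccl5. Of the 4 genes listed as T cell markers, Cd3d and Cd4 were detected and were also highest on replicate 1. Cd3d was at -4.57 against -5.19 to -4.95 elsewhere and Cd4 at -3.22 against -3.90 to -3.81. Of the other 4 detected markers of other cell types, Prg2 (-5.66 against -6.49 to -6.29) and Pecam1 (-0.68 against -1.03 to -0.91) were highest on replicate 1. S100a8 (-5.02 against -4.99 to -4.76) and Cdh5 (-5.71 against -5.67 to -5.21) were lowest on it. Among the macrophage and alveolar macrophage markers, Cd68 (3.19 against 2.96 to 3.13), Csf1r (-1.33 against -1.73 to -1.52), Lyz2 and Siglec1 were highest on replicate 1. Itgam, Pparg and Fabp4 were lowest on it, and the other detected ones were neither. The T cell markers Cd3e and Cd8a were detected on no array, and the part of other cell types in the Ccl5 values was not tested.

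Among the ligands of Ccr2, Ccl2 (monocyte chemoattractant protein 1) was measured in 10 spots per array and had a signal of 1368 on replicate 1, 2216 on replicate 2, 2320 on replicate 3 and 1573 on replicate 4. It was at -0.29 ± 0.05, with a span of 1.08-fold. Its neighbour Ccl7 (monocyte chemoattractant protein 3) was at the detection limit, with signals of 14.0, 23.3, 20.4 and 22.02 on replicates 1 to 4. The flag was set on replicates 2 and 4, and on replicate 3 for 1 of its 2 spots. On every array the Ccl7 signal nonetheless exceeded at least 304 of the 308 negative control spots, whose median was 3.64 to 4.16 and whose 95th percentile was 4.85 to 5.30.

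Ccl6 and Ccl9, chemokines that in mouse act through Ccr1, varied little between arrays. Ccl6, measured in 10 spots per array, had 9204, 13110, 14430 and 9399 on replicates 1 to 4 and was at 2.34 ± 0.03, with a span of 1.05-fold. Ccl9 had 4377, 6010, 6864 and 4569 and was at 1.26 ± 0.05, with a span of 1.09-fold. The raw signals of both genes followed the brightness of the arrays. Of the 200 detected probes nearest in level, 88% had a larger SD than Ccl6 and 66% a larger SD than Ccl9.

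The ligands of Ccr4, linked to alternative activation and T cell traffic, gave an unequal picture. For Ccl22 (macrophage-derived chemokine) the 3 probes of 1 accession disagreed widely. Probe A_44_P1160818 had 3349, 3648, 3710 and 2431 on replicates 1 to 4. Probe A_44_P1159750 had 49.1, 74.9, 84.9 and 56.0, and probe A_64_P157748 had 50.4, 64.3, 90.3 and 47.6. The bright probe read between 41.1 and 68.2 times the dim ones on the same array, while the dim probes lay within 0.23 of each other on the log2 scale. Averaged over arrays, the Ccl22 probes spanned 5.73 on the log2 scale. A span of that size or more was found in 109 of 1712 genes with several detected probes (6.37%), whose median span was 1.94. Detection of Ccl22 did not depend on the choice of probe, since all 3 were well above background on all arrays, but its level did, and the mean over probes of -3.25 ± 0.10 corresponds to none of them.

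The Ccl22 probes also differed in how the arrays ranked. The bright probe was at 0.93 on replicate 1, 0.47 on replicate 2, 0.38 on replicate 3 and 0.38 on replicate 4, an SD of 0.27 and a span of 1.47-fold. No probe among the 200 nearest in level had a larger SD, and their median SD was 0.0719. The dim probes did not share the high value on replicate 1. There A_44_P1159750 deviated by -0.05 from its own mean and A_64_P157748 by 0.07, against 0.39 for the bright probe. Each of these probes was printed in 1 spot, so spot noise and a difference between cultures cannot be told apart.

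Ccl17 (thymus and activation-regulated chemokine) had 15.8, 22.2, 21.9 and 14.4 on replicates 1 to 4 and was detected on the brighter replicates 2 and 3. Relative to the brightness of each array its levels lay close together, between -7.03 and -6.80. The lowest signal of any detected probe was 15.6 to 15.9 per array, and the Ccl17 signal was near or below it on replicates 1 and 4. Ccl24 (eotaxin 2), the Ccr3 ligand of eosinophil recruitment, had 19.2, 13.4, 30.4 and 15.2 and was detected on replicate 3 alone. Its levels ran from -7.62 on replicate 2 to -6.52 on replicate 1, so for Ccl24 the ranking of arrays by level differed from that by detection. With a looser flag, which asks only for a significantly positive signal, all 10 genes were detected on all arrays, but 3.90% to 5.84% of negative control spots carried that flag too.

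**Figure D2:**
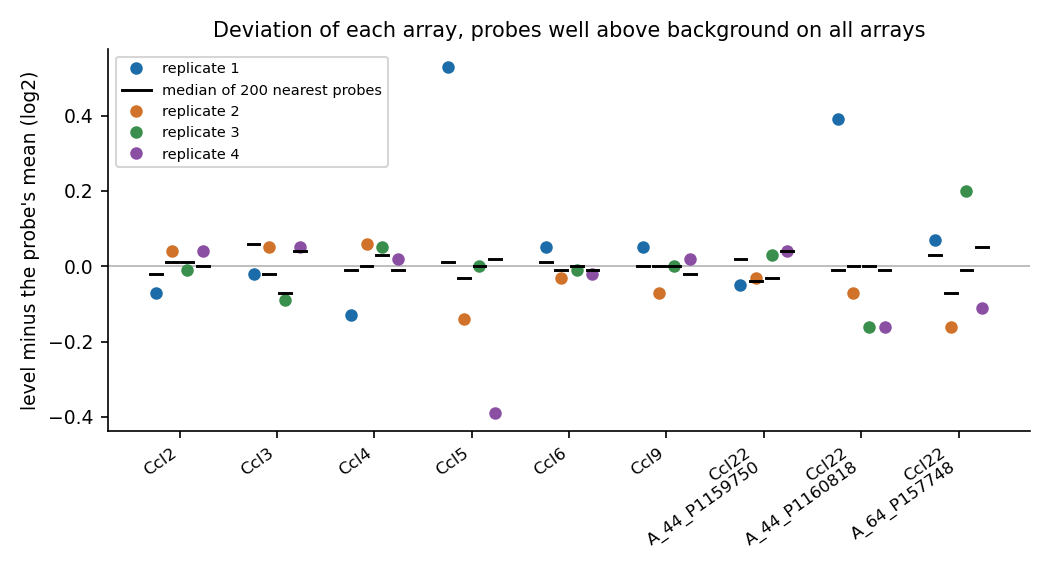
Deviation of each array from the probe's own mean over 4 arrays (log2) for the 9 CC chemokine probes well above background on all arrays. Points are arrays and black bars the median deviation of the 200 detected probes nearest in level. Most points lie near 0, apart from replicate 1 of Ccl5 (0.53) and of Ccl22 probe A_44_P1160818 (0.39) and replicate 4 of Ccl5 (-0.39).

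The CC chemokine probes did not move together on any array. Of the 9 detected probes, 5 were above their own mean on replicate 1, 3 on replicate 2, 3 on replicate 3 and 5 on replicate 4, with median deviations of 0.05, -0.03, 0.00 and 0.02 on the log2 scale. On replicate 1 the deviations ran from -0.13 for Ccl4 to 0.53 for Ccl5. The SD of the 7 detected genes ran from 0.0328 for Ccl6 to 0.386 for Ccl5, with a median of 0.0670, against a median of 0.0926 over all 8685 detected genes with a level. The median of the 7 was 0.0436 without replicate 1, and over all 10 genes it was 0.0968 when the looser flag set detection and 0.0960 when dim probes were kept. Only 1.98% of all detected genes had a larger SD than Ccl5. These comparisons with all genes are not matched for level, and SDs were larger among dim genes. Set against the median of the 200 detected probes nearest in level, the SD was larger for Ccl4 (0.0881 against 0.0788), Ccl5 and the bright Ccl22 probe. It was smaller for the other detected chemokine probes. Of the 200 probes nearest to Ccl4 in level, 36.5% had a larger SD than Ccl4.

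**Figure D3:**
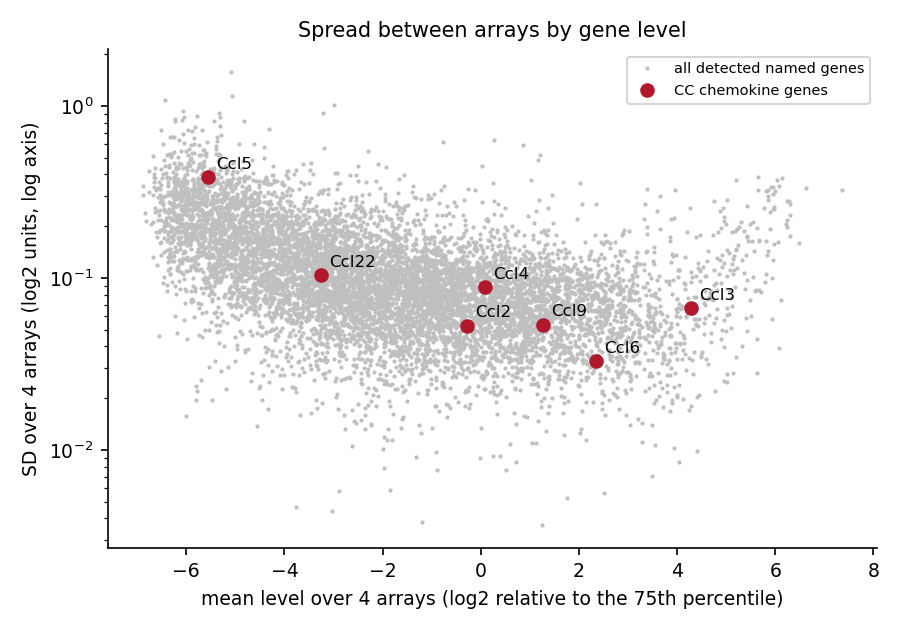
SD over 4 arrays (log2 units, log axis) against mean level (log2 relative to the 75th percentile of each array) for all detected named genes in grey and the 7 detected CC chemokine genes in red. Ccl22 is the mean of its 3 probes. Ccl5 lies in the dim range, where SDs are larger in general, and Ccl6 has the lowest SD of the 7, at 0.0328.

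For probes printed several times per array, differences between arrays could be tested against the spread between spots, taken as independent. The limma moderated F test with Benjamini-Hochberg adjustment called 1027 of 2319 such probes (44.3%) different between arrays, and 1 of the 5 chemokine probes among them, that of Ccl2. Its largest difference between arrays was 0.11 on the log2 scale (1.08-fold, limma adjusted p = 0.0067). Its SD between spots of the same array, pooled over arrays (spot SD), was 0.0677. Replicate 1 was the lowest array for Ccl2, and without it the largest difference was 0.07 (limma adjusted p = 0.184). With normexp background correction the difference was 0.15 and the call was lost (limma adjusted p = 0.391). That correction added an offset of 50 to every corrected signal. Ccl6, with as many spots, had a largest difference of 0.07 (limma adjusted p = 0.213). Ccl3, with 2 spots per array, had 0.14 (limma adjusted p = 0.759) and a spot SD of 0.146.

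Among these 5 probes Ccl5 had the largest difference between arrays, 0.92 on the log2 scale, but only 2 spots per array with a spot SD of 0.262. It missed the threshold of 0.05 (limma adjusted p = 0.0777), passed it when only probes well above background on all arrays were tested (limma adjusted p = 0.0433), a choice made after the data were seen, and passed it with normexp correction, where the difference was 0.57 (limma adjusted p = 0.00271). Without replicate 1 its largest difference was 0.38 (limma adjusted p = 0.470). The same printed spot of Ccl5 was the brighter one on every array, at -4.87 against -5.20 on replicate 1 and -5.74 against -6.17 on replicate 4. Ccl3 likewise had 1 spot that was brighter on every array. Their spot SDs therefore include a difference between printed positions, which the test did not pair across arrays for any probe. Recurring differences were also seen among the spots of Ccl2 and Ccl6. In Ccl2 the same spot was brightest on replicates 1, 2 and 4 (-0.295, -0.156 and -0.111), though not on replicate 3. In Ccl6, 1 spot was at 2.479, 2.465 and 2.417 on replicates 1 to 3 and another at 2.266, 2.264 and 2.240. Ccl7 had a largest difference of 0.72 (limma adjusted p = 0.142), and 0.52 with normexp correction (limma adjusted p = 0.00384). Without replicate 4 it was 0.32 (limma adjusted p = 0.514). The normexp offset of 50 lay within the range of the Ccl5 signals (30.2 to 60.4) and above the Ccl7 signals (14.0 to 23.3). The part of this offset in the normexp calls of Ccl5 and Ccl7 was not tested. Probes printed 10 times were called in 67.3% of cases and those printed 2 times in 12.2%, so the share called differed with the number of spots. The test compares arrays of 1 group and cannot part cultures from effects of labelling or of the array. The source names of replicates 2, 3 and 4 carry another nanotube code than the titles, and a difference in exposure could not be told apart either.

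**Figure D4:**
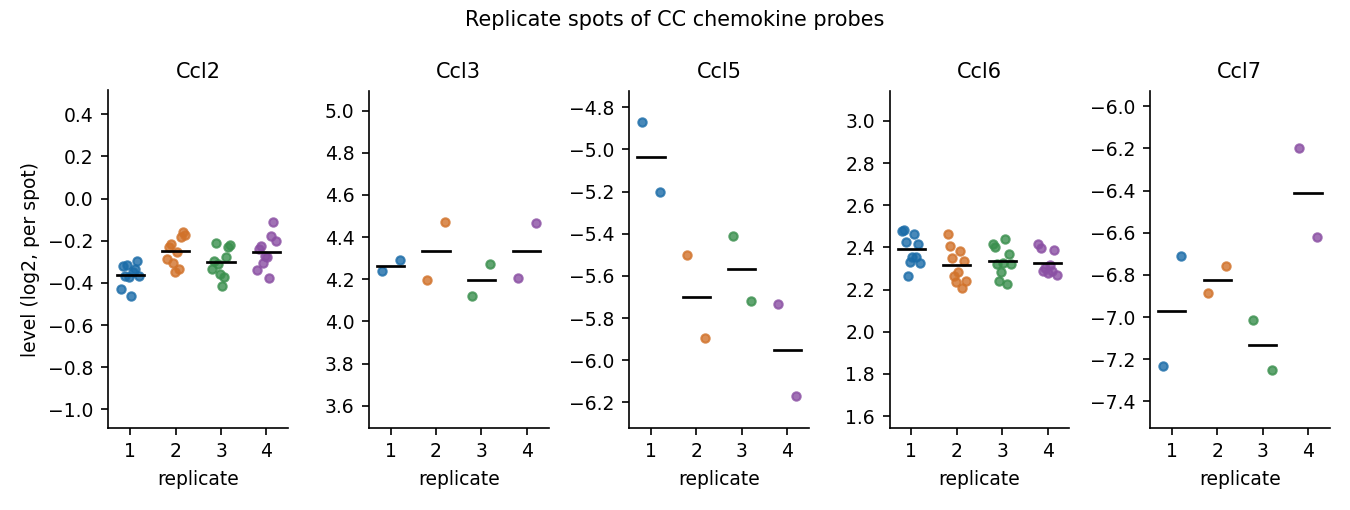
Level of every spot (log2 relative to the 75th percentile of each array) of the 5 CC chemokine probes printed several times, by replicate, with the mean as a black bar. All panels span the same range of levels. Ccl2 and Ccl6, with 10 spots per array, are tightly grouped, and the 2 Ccl5 spots of replicate 1 lie above those of the other arrays.

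The remaining CC ligand genes were mostly below detection. Of 10 measured genes, 0 were detected on all arrays, against 52.4% of all named genes, 2 on some and 8 on none. Ccl1, Ccl12, Ccl19, Ccl20, Ccl21, Ccl25, Ccl26 and Ccl28 were the 8. Ccl12, a further Ccr2 ligand near Ccl2 and Ccl7, had signals of 3.37, 3.14, 3.68 and 3.24, under the median of the negative control spots on every array. The Ccl20 probes, for the Ccr6 ligand, stayed at or below 5.07. Not well above background sets only an upper bound and does not show that a transcript was absent.

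Of 11 CC receptor genes measured and reported here, 3 were above background on all arrays (27.3%, against 52.4% of all named genes). Ccr1, the receptor of Ccl3 and Ccl5, had 540.6, 805.7, 924.6 and 580.5 on replicates 1 to 4 and was at -1.68 ± 0.04. Ccrl2, an atypical receptor that binds chemerin, was at -2.35 ± 0.02. Ccr9, the receptor of Ccl25, was at -4.91 ± 0.11 through 1 of its 2 probes.

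Several other receptor genes were below detection. Ccr2, the receptor of Ccl2, had 8.11, 3.95, 6.10 and 4.02, and Ccr4, the receptor of Ccl22, had 3.55, 3.35, 3.99 and 3.56. Ccr3, the receptor of Ccl24, had 4.07, 3.46, 4.00 and 3.54. These were detected on no array, nor were Ccr6, Ccr7 and the scavenging receptor gene Ackr2. Ccr10 and Ccr1l1 were detected on 2 arrays each, and no probe was matched to Ccr8, Ackr1 or Ackr4.

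**Figure D5:**
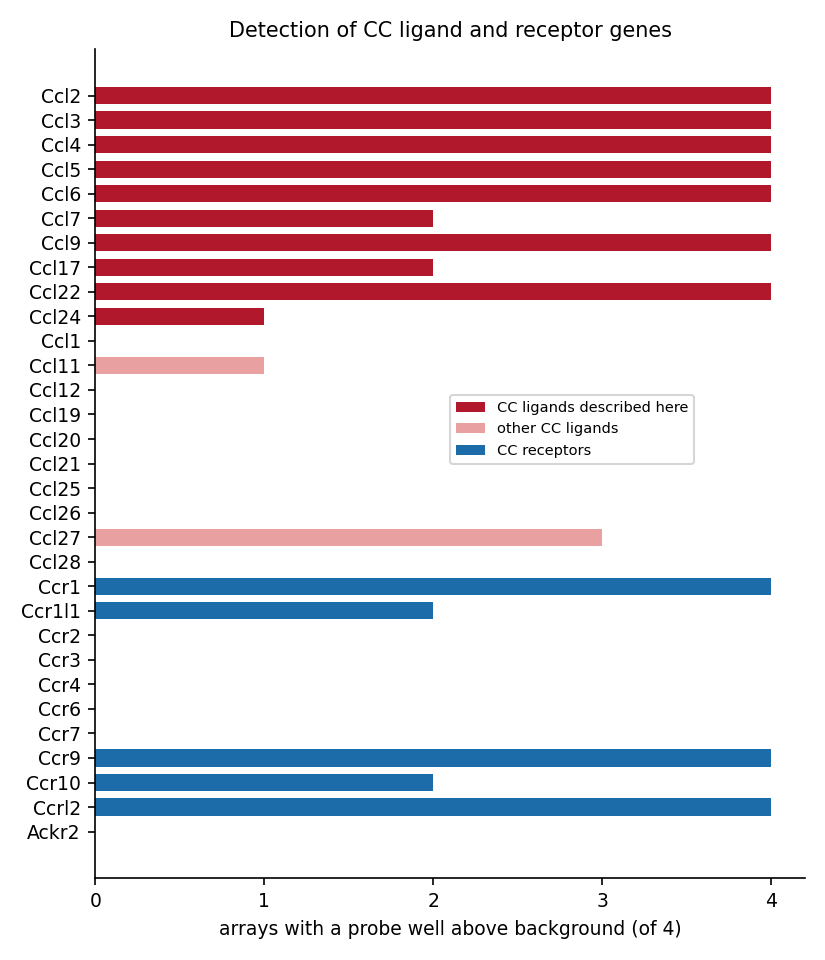
Number of arrays, of 4, on which at least 1 probe of a gene was well above background, for the 10 CC ligand genes described here, the 10 other CC ligand genes and the 11 CC receptor genes reported. Among receptors the bars of Ccr1, Ccr9 and Ccrl2 reach 4, and 8 of the other ligand genes have no bar.

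Genes that act downstream of these receptors or on the ligands were mostly detected, 21 of 24 measured genes (87.5%, against 52.4% of all named genes). Gnai2, the inhibitory G protein alpha subunit that couples chemokine receptors in leukocytes, was at 5.21 ± 0.03, its 2 probes 0.17 apart. The arrestin gene Arrb2 was at -0.72 ± 0.04 and the receptor kinase gene Grk2 at 0.79 ± 0.03. Rac2, the leukocyte GTPase of cell migration, was at -0.16 ± 0.10, and Pik3cg, which encodes the phosphoinositide kinase activated by G proteins, was at -5.33 ± 0.21. Rgs1, a brake on G protein signalling, and Dpp4, a protease that trims chemokines at the amino terminus, were detected on no array. Zfp36, whose product binds AU-rich messages, was detected on 3 arrays, while its relatives Zfp36l1 and Zfp36l2 were detected on all, at -2.44 ± 0.02 and 0.42 ± 0.11. Their levels are means over probes that spanned 2.86 for Zfp36l1 and 2.90 for Zfp36l2 on the log2 scale. Dock2 and Elmo1 had no matched probe.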

How the data were processed

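RNA of 4 exposed cultures was measured on 1-colour Agilent arrays, 1 array per culture on 1 slide in 1 scan. Agilent Feature Extraction 11.0.1.1, named in the submitters' processing notes, made the deposited intensity values. Per the file headers, these had background subtracted and spatial trends removed, with no normalization between arrays. Per the file headers, the other deposited columns used were raw median intensity values of spots and local background and flags of 0 or 1.

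Outlier spots (427 to 714 per array) were dropped and log2 signals averaged per probe. Between 40.8% and 43.7% of probes were detected, so arrays were scaled on the 17807 probes detected on all. Gene names came from RefSeq accessions in a table of assembly GRCr8. The array was designed on another build, so coordinates are given only with RefSeq promoters. Using limma 3.58.1 (R 4.3.3), differences between arrays were tested over all probes printed several times, adjusted across all of them. The test was first checked on simulated data, in which spots were independent. Figures used matplotlib 3.10.9 in Python 3.11.15. Named genes were all members, all other CC ligands and receptors (1 receptor is not reported here), and chosen genes of a signalling list. Members, lists and tests were chosen with earlier results of these data known.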

Additional observations from a re-analysis of the deposited data

Results flagged for a closer look

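No level met the criterion for a single array standing apart. Dixon's ratio was computed for 34 series of 4 arrays (7 CC chemokine genes, the 3 Ccl22 probes, and the receptor and signalling genes with a level), and 0 passed its 95% critical value, where chance gives about 1.7. The Ccl22 probe A_44_P1160818 came nearest, at 0.827, with replicate 1 as the high array. That probe was higher on replicate 1 than the mean of the other arrays by 0.52 on the log2 scale, and by 0.51 to 0.56 under the alternative scalings, background correction, detection flag and outlier setting.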

How the results depend on the processing

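The count of detected CC chemokine genes was 7 with outlier spots kept, with detection asked on at least 3 arrays and without any 1 replicate, and 10 with the looser flag. The median SD was 0.0639 to 0.0968 under the alternatives other than leaving out a replicate, and 0.0436 to 0.0747 without 1 replicate, lowest without replicate 1. Called chemokine probes numbered 2 with normexp correction (Ccl5 and Ccl7, and no longer Ccl2), 2 when only probes well above background were tested (chosen after seeing the data), and 0 to 1 without 1 replicate. The cause was not tested. Over all probes the count was 729 to 1062. Levels shifted together by 3.60 with the 75th percentile of all probes and by 2.43 with the median, as for all genes, and Ccl22 by 3.79 with the brightest probe. Normexp moved them unevenly, by -0.10 to 1.24, with Ccl5 at -4.32 and Ccl22 at -2.53. No paired analysis was possible because the samples form 1 group. The background correction started from median spot signals and added an offset of 50, and the looser flag was not applied to the test over spots. Signal over background limits Ccl5, Ccl7, Ccl17, Ccl24 and the dim Ccl22 probes.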

Other observations

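Among the other CC ligands, 2 genes were above background on some arrays. Ccl11, the eosinophil attractant eotaxin, had a signal of 28.6 on replicate 4, where it was well above background, and 3.11 to 3.72 on the other arrays. Ccl27, a ligand of Ccr10, was detected on 3 arrays. Its probe A_42_P683840, well above background on 3 arrays, had 17.5, 24.2, 66.1 and 16.7 on replicates 1 to 4, and A_44_P1105577, well above background on 1, had 24.9, 14.4, 13.3 and 11.9, so the probes did not share their highest array. Each was printed in 1 spot per array, and no cause was tested.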
